A study of Mus musculus with 6 samples.

Results

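The high mobility group (HMG) genes of mouse N2A neuroblastoma cells were followed after depletion of the long non-coding RNA Dali. The genes considered were Hmgb1, Hmgb2, Hmgb3, Hmgn1, Hmgn2, Hmgn3, Hmgn5, Hmga1 and Hmga2, and every array probe set whose annotation gives one of these symbols alone was taken, whatever its value. The array held such probe sets for 8 of the 9 genes, 16 in all, out of 19938 genes with a probe set of 1 symbol. Hmga1 had 0 and was not analysed here. Hmgb2 had 4 probe sets, Hmgb3 had 2, Hmgn2 had 5 and each other gene had 1. Both groups were N2A cells transfected transiently with 1.5 ug of a construct expressing a short hairpin RNA (shRNA). In 3 samples a single construct targeted Dali (knockdown), and in the other 3 samples the vector was non-targeting (control). Cells were harvested 2.5 days later, and 200 ng of total RNA per sample was hybridised, after labelling, to Affymetrix Mouse Gene 1.0 ST arrays. The level of Dali itself was not analysed here.

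HMG proteins are abundant non-histone proteins that bind chromatin with little sequence preference and change its shape. They fall into families named after their DNA-binding parts. HMGB proteins carry HMG boxes, which fit into the minor groove of DNA and bend it, and an acidic tail. HMGN proteins bind the nucleosome core itself and compete there with linker histone H1, which keeps chromatin less compact. HMGA proteins hold AT-hooks, which bind the minor groove of AT-rich DNA. Several members are high in embryonic and dividing cells and decline as neural progenitors differentiate.

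The values were log2 RMA values, on which a difference of 1 is a doubling. Pearson correlations between the 6 arrays ranged from 0.9904 to 0.9975 and array medians from 7.86 to 7.93. Neuroblastoma and neuron markers were present, with 2 of 20 probe sets averaging under the array median. The corresponding counts were 5 of 8 for fibroblast, 6 of 6 for astrocyte, 2 of 5 for oligodendrocyte and Schwann, 4 of 6 for endothelial, 6 of 7 for macrophage and microglia, and 4 of 5 for epithelial markers. None of these marker lists held a called probe set in either direction by limma, with or without the replicate number as a block, where a call needs an adjusted p under 0.1 and a change of 1.3-fold or more. Among marker probe sets that passed the variance filter (an interquartile range exceeding the median of all rows with a symbol), 0 had an unadjusted p under 0.05. In the limma fit without the filter, 2 of the 20 neuroblastoma and neuron probe sets had an unadjusted p under 0.05. By limma without the filter, Chgb (which passed it) and Mycn (which did not) had unadjusted p of 0.042 and 0.049. Both had every knockdown array below every control array, with differences of -0.22 for Chgb and -0.27 for Mycn.

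The promoters of Hmgb2 and Hmgb3 are shown because these genes differed most between the groups, and those of Hmgb1 and Hmgn2 because these relatives differed less. Each sequence is the 250 bases before the RefSeq start site (GRCm38.p6), read 5′ to 3′ on the strand of the gene. Capitals mark the CCAAT box (CCAAT) and the CHR element (TTTGAA, the cell cycle genes homology region), found on either strand. No marked stretches overlap each other.
Hmgb2, chr8:57511593-57511842, plus strand: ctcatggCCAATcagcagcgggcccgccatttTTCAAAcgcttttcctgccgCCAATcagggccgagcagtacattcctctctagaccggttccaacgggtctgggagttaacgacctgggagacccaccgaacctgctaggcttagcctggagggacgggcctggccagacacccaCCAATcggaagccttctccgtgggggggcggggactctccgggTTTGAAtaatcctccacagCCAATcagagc
Hmgb3, chrX:71555667-71555916, plus strand: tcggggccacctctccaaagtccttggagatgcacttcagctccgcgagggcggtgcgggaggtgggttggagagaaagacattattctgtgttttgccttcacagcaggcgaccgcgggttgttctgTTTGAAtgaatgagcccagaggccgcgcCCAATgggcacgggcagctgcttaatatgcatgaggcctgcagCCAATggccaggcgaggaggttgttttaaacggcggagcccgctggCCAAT
Hmgb1, first of 2 start sites, chr5:149053058-149053307, minus strand: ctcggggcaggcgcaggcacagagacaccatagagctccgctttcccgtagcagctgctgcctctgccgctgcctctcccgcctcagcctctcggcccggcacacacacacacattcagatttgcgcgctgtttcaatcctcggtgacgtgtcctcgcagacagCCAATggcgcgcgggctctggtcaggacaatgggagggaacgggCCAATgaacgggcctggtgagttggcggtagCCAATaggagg
Hmgn2, chr4:133967992-133968241, minus strand: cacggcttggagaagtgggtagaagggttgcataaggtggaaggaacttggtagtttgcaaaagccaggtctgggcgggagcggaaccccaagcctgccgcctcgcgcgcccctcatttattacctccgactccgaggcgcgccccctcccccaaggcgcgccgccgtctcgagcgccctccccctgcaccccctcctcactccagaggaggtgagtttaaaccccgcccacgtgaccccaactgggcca

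The Hmgb2 window held 4 CCAAT boxes, whose last bases lay 239, 194, 69 and 7 bases before the start, and 2 CHR elements, 1 on the gene's strand at 25 bases and 1 on the other strand at 213 bases. The Hmgb3 window held 3 CCAAT boxes at 90, 47 and 1 bases and 1 CHR element at 117 bases. The first Hmgb1 window held 3 CCAAT boxes at 82, 38 and 7 bases with 0 CHR elements, and the second Hmgb1 window held neither. Hmgn1 and Hmgn5 had 2 CCAAT boxes each, whereas Hmgn2 and Hmga2 had 0. Among the 10 windows of the 8 genes with an entry, CHR letters occurred in those of Hmgb2 and Hmgb3 alone. In all 32851 promoter windows of the same length, 33.8% held a CCAAT box, 2.79% held 3 or more, and 16% held a CHR element. An E2F site (spelled TTCCCGC, or else TTGGCGC, or else TTCGCGC), held by 6.69% of all windows, was found in Hmga2 alone, where it overlapped a match to the GC box (GGGCGG, 32.7% of windows). The octamer core TGCAAAT recognised by POU factors, held by 3.56% of windows, was found in both overlapping Hmga1 windows. These matches describe letters and not sites of binding, and Hmgn3 had no entry.

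Hmgb2, which encodes an HMGB protein of dividing cells, showed the largest difference of the 8 genes measured. Its mean over 4 probe sets was 11.76, 11.48 and 11.65 on the knockdown arrays (replicates 1, 2 and 3), against 11.29, 10.80 and 11.19 on the control arrays. Every knockdown array lay above every control array, and the lowest value was that of control replicate 2. The mean was 11.63 ± 0.14 in knockdown and 11.09 ± 0.26 in control cells (SD, n = 3 each), a difference of 0.54 or 1.45-fold. Within replicate numbers the differences were 0.48, 0.68 and 0.46. An exact permutation test gave a two-sided p of 0.1, the smallest that 3 against 3 arrays allow.

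All 4 Hmgb2 probe sets are annotated to the same transcript records, so they are repeated readings of a single gene rather than independent measurements. They correlated with each other over the 6 arrays with r of at least 0.995. Probe set 10510172 read 11.58, 11.31 and 11.50 in knockdown, against 11.12, 10.59 and 11.00 in control cells, and differed by 0.56 (SE 0.16, 95% interval 0.23 to 0.88). The remaining 3 probe sets differed by 0.52, 0.54 and 0.54. None passed the threshold of limma, with adjusted p of 0.12 to 0.13 and unadjusted p of 0.0022 to 0.0029, where the largest unadjusted p that passed was 0.0011. With the replicate number as a block all 4 were called higher in knockdown cells, with limma adjusted p of 0.011 to 0.012. Between 72 and 107 of the 11705 probe sets tested had a higher difference than the Hmgb2 probe sets, or 0.615% to 0.914%. Without a block, the 4 probe sets were also called when knockdown replicate 2 was left out (limma adjusted p of 0.070 to 0.074) or control replicate 3 (0.088 to 0.0996), and their difference was 0.39 to 0.40 without control replicate 2 (adjusted p of 0.54 to 0.59).

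Hmgb3, an HMGB gene known for its role in blood stem cells and embryonic tissue, followed the same direction. Its mean over 2 probe sets was 10.46, 10.22 and 10.49 in knockdown, against 10.10, 9.81 and 9.87 in control cells. The groups did not overlap, and control replicate 2 was again the lowest array. The difference was 0.47, or 1.38-fold (10.39 ± 0.15 in knockdown and 9.93 ± 0.16 in control cells, SD, n = 3 each), with an exact permutation p of 0.1. Within replicate numbers it was 0.36, 0.41 and 0.63. Both probe sets cite the same transcripts and correlated at r = 0.997. Probe set 10352954 differed by 0.48 (95% interval 0.18 to 0.78, limma adjusted p = 0.14) and probe set 10600017 by 0.45 (0.15 to 0.75, adjusted p = 0.18). Both were called higher with the replicate block (limma adjusted p of 0.016 and 0.019). They were also called without knockdown replicate 2 (0.067 and 0.077).

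Hmgb1, the most widely expressed member of the family and an extracellular danger signal when cells release it, had 1 probe set of its own. A further 34 rows list Hmgb1 together with other symbols and were not used. Its values were 9.11, 9.08 and 9.38 in knockdown, against 9.13, 8.95 and 8.92 in control cells. Knockdown replicate 3 was high, and the other knockdown arrays lay within the range of control cells. The difference of 0.19 (SE 0.11, 95% interval -0.05 to 0.44) did not pass (limma adjusted p = 0.61 without the variance filter, which removed this probe set, and exact permutation p of 0.3). The pair differences were -0.02, 0.13 and 0.46, so that replicate 3 carried most of the mean. Whether Hmgb2 and Hmgb1 differed in their response was not tested.

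**Figure D1:**
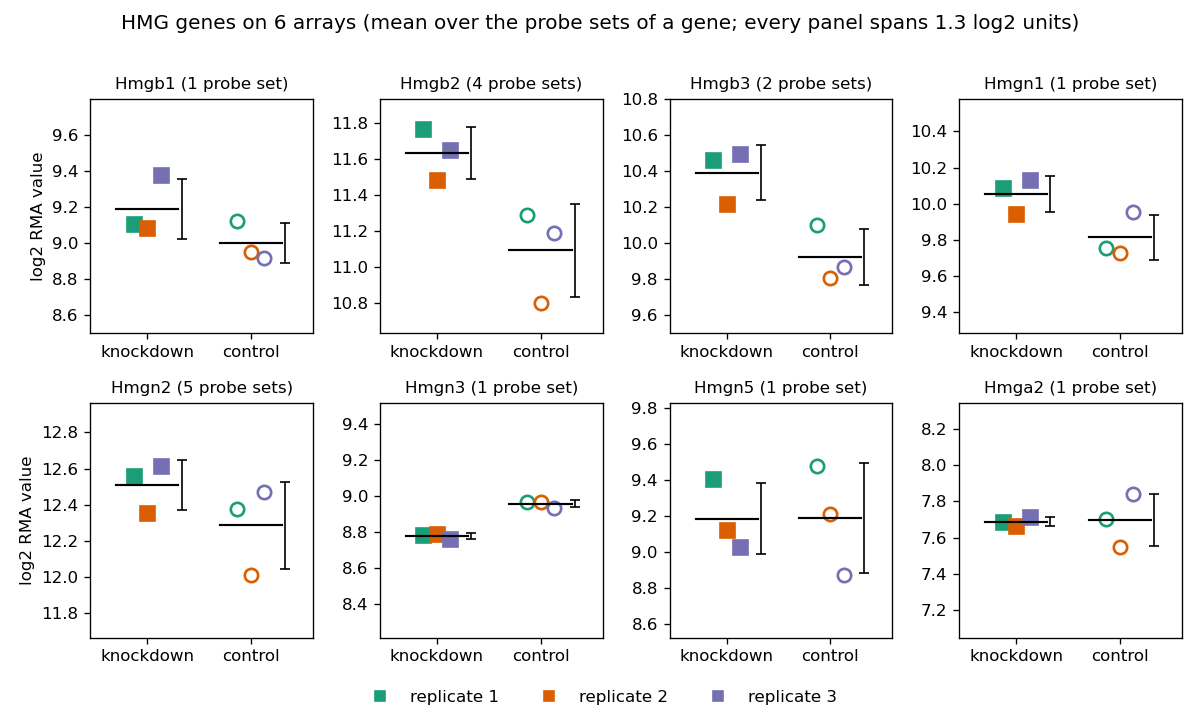
Log2 RMA values of the 8 HMG genes with a probe set (vertical axis, mean over the probe sets of a gene) on the knockdown arrays (filled squares) and the control arrays (open circles), coloured by replicate number, with the group mean (line) and SD (bar, n = 3). Knockdown and control arrays do not overlap for Hmgb2 and Hmgb3, higher in knockdown cells, and for Hmgn3, lower in knockdown cells.

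Hmgn1 and Hmgn2 encode the founding nucleosome-binding members. Hmgn1 read 10.09, 9.94 and 10.13 in knockdown, against 9.75, 9.73 and 9.95 in control cells. Knockdown was higher within each number, by 0.33, 0.21 and 0.18, but knockdown replicate 2 lay just under control replicate 3. The mean difference was 0.24 (95% interval -0.05 to 0.53, limma adjusted p = 0.49, exact permutation p of 0.2). With the block its limma adjusted p was 0.087, and it was not called because 1.18-fold lies under the fold threshold.

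Hmgn2 averaged 12.56, 12.35 and 12.61 in knockdown, against 12.37, 12.01 and 12.47 in control cells. Replicate 2 was the lowest array of each group, and the groups overlapped. The difference was 0.22 (exact permutation p of 0.3), and pair differences were 0.19, 0.34 and 0.14. Of its 5 probe sets, 4 cite the same transcript records and differed by 0.21 to 0.26. The fifth, 10522784, cites a single record, differed by 0.16 and was the only Hmgn2 probe set lower in knockdown in a pair (-0.03 for replicate 1). The lowest correlation between Hmgn2 probe sets was 0.873. Without control replicate 2 the first 4 differed by 0.10 to 0.12 and 10522784 by -0.02. None passed (limma adjusted p of 0.50 to 0.77), and none was called with the block, where 3 had adjusted p of 0.080 to 0.091 at a fold under 1.3.

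Hmgn3, which in mouse is expressed in brain and in pancreatic islet cells, was the only member lower in knockdown on every array. It read 8.79, 8.79 and 8.76 in knockdown, against 8.97, 8.97 and 8.94 in control cells. The groups did not overlap and the spread within each was small (SD 0.015 in knockdown and 0.019 in control cells, n = 3 each). The pair differences were -0.184, -0.178 and -0.173. The mean difference was -0.18, or -11.6%, and the exact permutation p was 0.1. It did not pass limma (SE 0.13, 95% interval -0.45 to 0.09, adjusted p = 0.61, or 0.16 with the block), in which the variance of a probe set is moderated towards that of the others. The size lies under the fold threshold.

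Hmgn5, whose protein carries a long acidic tail that counters linker histones, and Hmga2, an embryonic AT-hook gene repressed by the let-7 miRNA, showed no detectable difference. Hmgn5 read 9.40, 9.12 and 9.03 in knockdown, against 9.48, 9.21 and 8.87 in control cells. Its values varied more between replicate numbers than between groups, and the difference was -0.003 (95% interval -0.35 to 0.34, limma adjusted p = 0.996). Hmga2 read 7.69, 7.66 and 7.72 in knockdown, against 7.70, 7.55 and 7.84 in control cells. Every one of these values lay under the array medians of 7.86 to 7.93. All 3 knockdown arrays lay within the range of control cells, and the difference was -0.009 (95% interval -0.22 to 0.20, limma adjusted p = 0.99 without the variance filter, which removed it). These intervals hold differences as large as the one of Hmgn3, so a like response of either gene could not be told from none with 3 arrays.

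**Figure D2:**
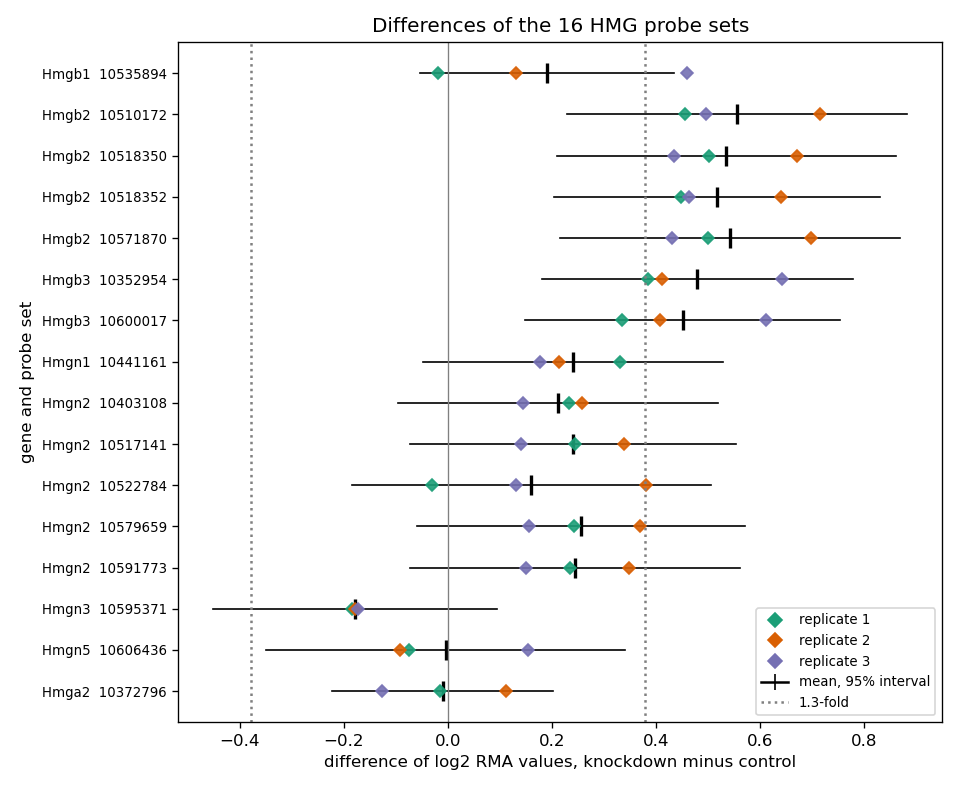
Knockdown minus control difference in log2 RMA value (horizontal axis), for each of the 16 HMG probe sets (vertical axis), with the difference within each replicate number (diamonds), the mean (tick) and the 95% interval of the limma fit (line). The intervals shown for the 4 Hmgb2 and 2 Hmgb3 probe sets lie above 0 and all others shown hold 0. Those of Hmgb1 and Hmga2, which the variance filter removed, come from the fit without it.

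Over the gene group, 0 of the 14 probe sets that passed the variance filter were called by limma, against 1.14% of all 11705 tested (0.367% higher and 0.769% lower in knockdown cells). At an unadjusted p under 0.05 there were 6 of the 14 probe sets, from 2 genes, against 12.7% of all tested. This count depends on the filter. In the limma fit without it, 8 of the 16 probe sets had such a p, against 2507 of 23410. Some of these 8 therefore lay outside Hmgb2 and Hmgb3. With the replicate number as a block, 6 probe sets of 2 genes (Hmgb2 and Hmgb3) were called, all higher in knockdown cells, against 7.65% of all tested (2.77% higher and 4.89% lower). Because the probe sets of a gene repeat each other, this is a count of 2 of the 6 genes that passed the filter. Before the filter, 6 of the 16 probe sets had all knockdown arrays above all control arrays, against 8.59% of all probe sets, and 1 had them below, against 6.84%. By gene these were 2 and 1 of 8. Hmgb1 and Hmga2 did not pass the variance filter.

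Of the 8 genes, 5 had a higher mean in knockdown cells (62.5%), against 55% of all 19938 genes. The median difference over the 8 genes was 0.21, against 0.02 over all genes, with quartiles of -0.07 and 0.10. Over the 16 probe sets the median was 0.24, and by replicate number it was 0.24, 0.36 and 0.17, against 0.05, -0.0006 and -0.02 over all probe sets with a gene symbol. The members thus ranged from Hmgn3, which 80.6% of the tested probe sets exceeded, to Hmgb2.

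**Figure D3:**
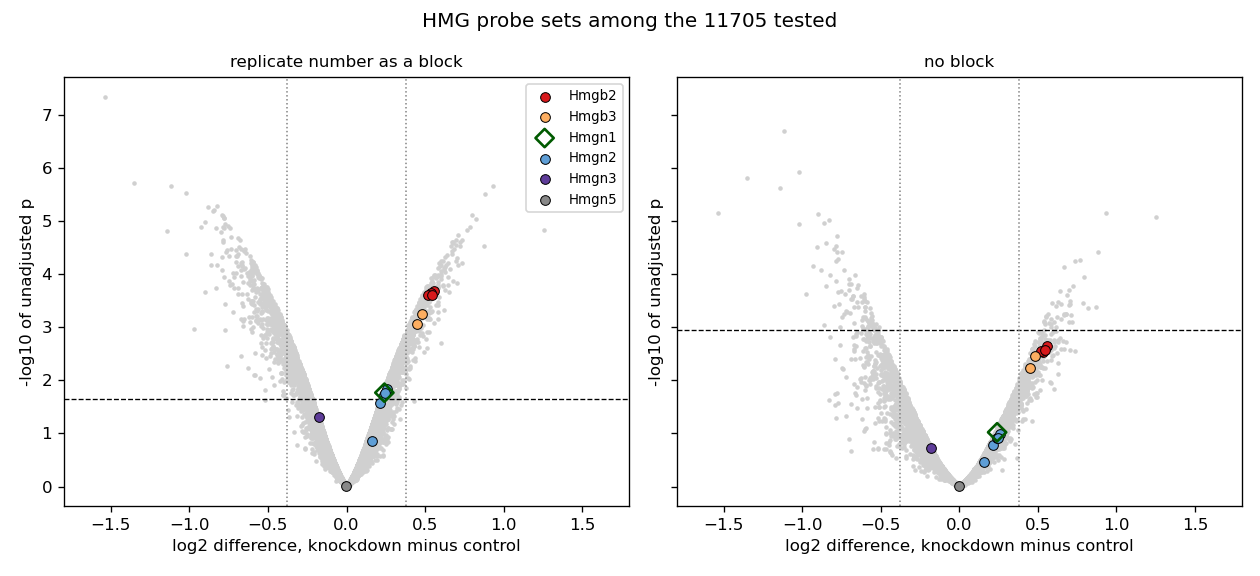
Knockdown minus control difference in log2 RMA value (horizontal axis), and -log10 of the unadjusted limma p (vertical axis) of the 11705 probe sets tested (grey) and the 14 HMG probe sets among them (coloured by gene), with the replicate number as a block (left) and without it (right). The dashed line marks the largest p with an adjusted p under 0.1 and the dotted lines 1.3-fold. Hmgb2 and Hmgb3 lie above the dashed line with the block and below it without. Hmgn1 and the Hmgn2 probe sets 10517141, 10579659 and 10591773 also lie above it with the block, but at a fold under 1.3.

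The arrays followed a shared order for part of the group. Taken as the deviation from the mean of all 6 arrays, Hmgb2 was at 0.40, 0.12 and 0.29 on the knockdown arrays and at -0.07, -0.56 and -0.17 on the control arrays. Control replicate 2 was also the lowest array for Hmgb3 (-0.35), Hmgn1 (-0.20), Hmgn2 (-0.38) and Hmga2 (-0.14), whereas Hmgb1 was lowest on control replicate 3 (-0.17). Knockdown replicate 2 was the lowest knockdown array for Hmgb1, Hmgb2, Hmgb3, Hmgn1, Hmgn2 and Hmga2. Over the 6 arrays, the correlation with Hmgb2 was 0.94 for Hmgb3, 0.88 for Hmgn2, 0.84 for Hmgn1 and 0.68 for Hmgb1. It was 0.33 for Hmga2, 0.13 for Hmgn5 and -0.86 for Hmgn3. After the group means were removed, it was 0.90 for Hmgn2, 0.78 for Hmgb3, 0.71 for Hmga2, 0.53 for Hmgn1, 0.33 for Hmgb1, 0.26 for Hmgn5 and -0.30 for Hmgn3. These are descriptions over 6 arrays, which share both the group difference and their overall array effects.

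**Figure D4:**
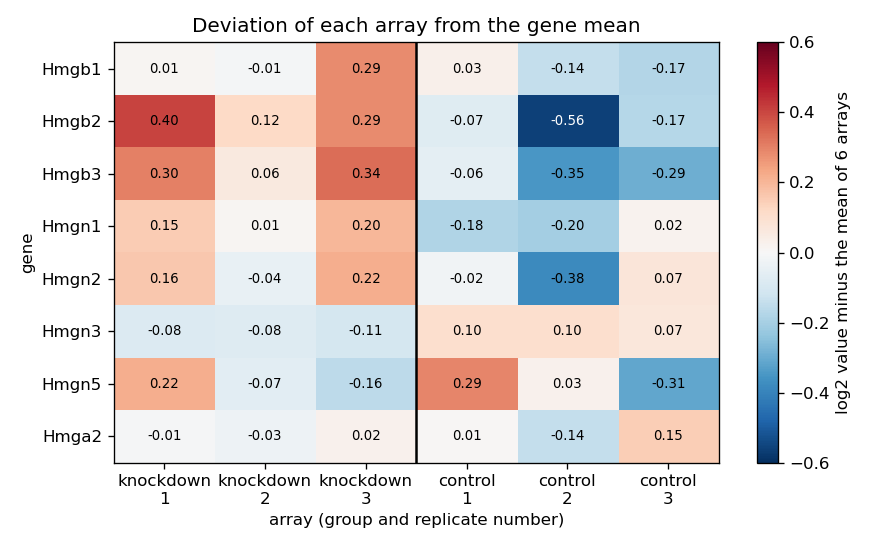
Log2 RMA value of each HMG gene (rows) on each array (columns, knockdown left of the line, control right) minus the mean of that gene over 6 arrays. Control replicate 2 is the lowest array for Hmgb2 (-0.56), Hmgb3 (-0.35), Hmgn1 (-0.20), Hmgn2 (-0.38) and Hmga2 (-0.14), and Hmgn3 shows the opposite sign to Hmgb2 on every array.

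Among 11057 probe sets of other genes that passed the filter, 172 correlated with the Hmgb2 mean at r above 0.95. The closest was Drd2, a dopamine receptor (r = 0.996, difference 0.25). It read from 6.72 to 7.15 on the arrays, under the array medians of 7.86 to 7.93. Next came Dck, a kinase that salvages deoxynucleosides (r = 0.994, difference 0.47), Lig1, the DNA ligase that joins replicated fragments (r = 0.993, difference 0.42), Chaf1a, a subunit of the chromatin assembly factor that loads histones on new DNA (r = 0.993, difference 0.52), and Pola1, part of the polymerase that primes DNA synthesis (r = 0.991, difference 0.72). With the replicate block Dck, Lig1 and Chaf1a were called higher as well as Pola1 (limma adjusted p of 0.015, 0.019, 0.011 and 0.0077), but Drd2 was not. Without it, Pola1 alone of the 5 was called (limma adjusted p = 0.089), reading 9.89, 9.46 and 9.88 in knockdown, against 9.30, 8.62 and 9.15 in control cells.

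Genes of dividing cells were described beside Hmgb2. Of 34 probe sets of 28 such genes, 33 had a higher mean in knockdown cells, against 55.2% of all probe sets with a gene symbol. The median was 0.33 (0.21, 0.36 and 0.40 by replicate number). Their mean level was 11.67, 11.43 and 11.71 in knockdown, against 11.39, 11.00 and 11.28 in control cells, with a correlation of 0.98 to the Hmgb2 mean over the 6 arrays, given as a description. Of the 30 probe sets in this list that passed the variance filter, 20 had an unadjusted p under 0.05, against 12.7% of all tested. Of these 30, 5 rose by limma and 0 fell (14 and 0 with the block). Over all tested, 0.367% were called higher (2.77% with the block). Those called without the block included Rrm2, a subunit of ribonucleotide reductase (1.91-fold, limma adjusted p = 0.012), and Nasp, a histone chaperone (1.85-fold, 0.024). They also included Hells, a chromatin remodeller (1.77-fold, 0.069), and Mcm3, a subunit of the replicative helicase (1.72-fold, 0.066). Without each array in turn the count of calls ran from 0, without knockdown replicate 1, to 9, without knockdown replicate 2 or control replicate 3, and it was 2 without control replicate 1 or 2. Neuron markers averaged 11.20, 11.24 and 11.16 in knockdown, against 11.30, 11.27 and 11.27 in control cells, with 5 of 20 probe sets higher. The part of cell division in the Hmgb2 and Hmgb3 differences was not tested, and a change in the share of dividing cells and a change of RNA per cell cannot be told apart in bulk RNA.

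The protein partners of HMGB2 include the SET complex, a group of acidic histone chaperones and nucleases. The list used here joins genes of that complex with other HMGB partners, among them Pcna, Msh6, Rag1, Rag2 and Rb1. All 14 probe sets of 12 measured genes in this list had a higher mean in knockdown cells (median 0.20), against 55.2% of all probe sets with a gene symbol. Of the 14, 3 averaged under the array median, among them those of Rag1 and Rag2. Differences ran from 0.01 for Trex1 to 0.77 for Anp32b. Of the 10 that passed the variance filter, 5 had an unadjusted p under 0.05, against 12.7% of all tested. Of these 10, 1 was called higher, in the fit with and without the block, against 0.367% of all tested without the block and 2.77% with it. This was Anp32b, an acidic histone chaperone, at 11.71, 11.51 and 11.78 in knockdown, against 10.83, 10.76 and 11.10 in control cells (1.70-fold, limma adjusted p = 0.029). It was not called without knockdown replicate 1 or control replicate 1.

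Linker histones compete with HMGN proteins for nucleosomes. Of 9 measured genes, 6 were higher in knockdown cells (median 0.15), against 55.2% of all probe sets with a gene symbol. All 9 passed the variance filter, and 0 were called by limma. At an unadjusted p under 0.05 there were 3 of 9, against 12.7% of all tested. With the block 3 were called higher, against 2.77% of all tested. H1f3 averaged 8.30 in knockdown and 7.70 in control cells (difference 0.60, adjusted p = 0.10, 0.028 with the block), and H1f2 averaged 11.14 in knockdown and 10.62 in control cells (difference 0.52, adjusted p = 0.11, 0.018 with the block). H1f10 was the third called with the block (difference 0.39, adjusted p = 0.035) and is named because of that count. Leaving out knockdown replicate 2 gave 1 call (H1f2), as did leaving out control replicate 3 (H1f3).

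Other proteins with an HMG box showed a smaller shift, with a median of 0.06. Of 23 probe sets of 19 genes, 17 were higher, against 55.2% of all probe sets with a gene symbol. By limma 0 were called, and 1 of the 13 that passed the variance filter had an unadjusted p under 0.05, against 12.7% of all tested. Wdhd1, a replication protein with an HMG box, averaged 10.15 in knockdown and 9.65 in control cells (difference 0.49, adjusted p = 0.13). It was the 1 called with the block (limma adjusted p = 0.012), where 2.77% of all tested were called higher. It was also the 1 called without knockdown replicate 2 or control replicate 3. Pbrm1, a chromatin remodelling subunit, differed by 0.24 for probe set 10413697.

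The receptors and ligands through which extracellular HMGB1 acts held 10 probe sets, 5 of them averaging under the array median. Of the 10, 5 were higher, against 55.2% of all probe sets with a gene symbol, with a median difference of 0.03. The variance filter passed 3 of them, and 0 were called by limma. Tlr4, a receptor of innate immunity, read 6.18, 6.32 and 6.12 in knockdown, against 6.76, 6.90 and 6.51 in control cells (difference -0.52, adjusted p = 0.12). These values lay under the array medians of 7.86 to 7.93. Tlr4 had the only unadjusted p under 0.05 in this list. It was called lower with the block (limma adjusted p = 0.012), where 4.89% of all tested were called lower. It was also called without knockdown replicate 2 or control replicate 3. Tlr9, an endosomal receptor, differed by 0.17.

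The let-7 pathway is the best known repressor of Hmga2. Of 14 probe sets of 12 genes of this axis, 9 were higher (median 0.15), against 55.2% of all probe sets with a gene symbol. Of the 10 that passed the variance filter, 4 had an unadjusted p under 0.05, against 12.7% of all tested. Of these 10, 2 rose by limma, against 0.367% of all tested, with 0 falling. Trim71, a let-7 target that acts in embryonic cells, rose 1.54-fold (9.71 in knockdown and 9.09 in control cells, adjusted p = 0.067), and Dicer1, the nuclease that releases mature miRNAs, rose 1.51-fold (11.78 in knockdown and 11.19 in control cells, adjusted p = 0.066). Lin28b, which blocks let-7 processing, was the third called with the block (difference 0.52, adjusted p = 0.012), and is named because of that count. With the block, 2.77% of all tested were called higher. Lin28a, of the same list, had every knockdown array below every control array (difference -0.35, limma adjusted p = 0.31, 0.035 with the block). At 1.27-fold lower it was not called, and it is named because its sign is opposite to that of Lin28b. Without knockdown replicate 1, control replicate 1 or control replicate 2 the list held 0 calls, and without knockdown replicate 2 or control replicate 3 it held 3. Beside these values Hmga2 itself stood at a difference of -0.009, with every array reading under the array medians.

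**Figure D5:**
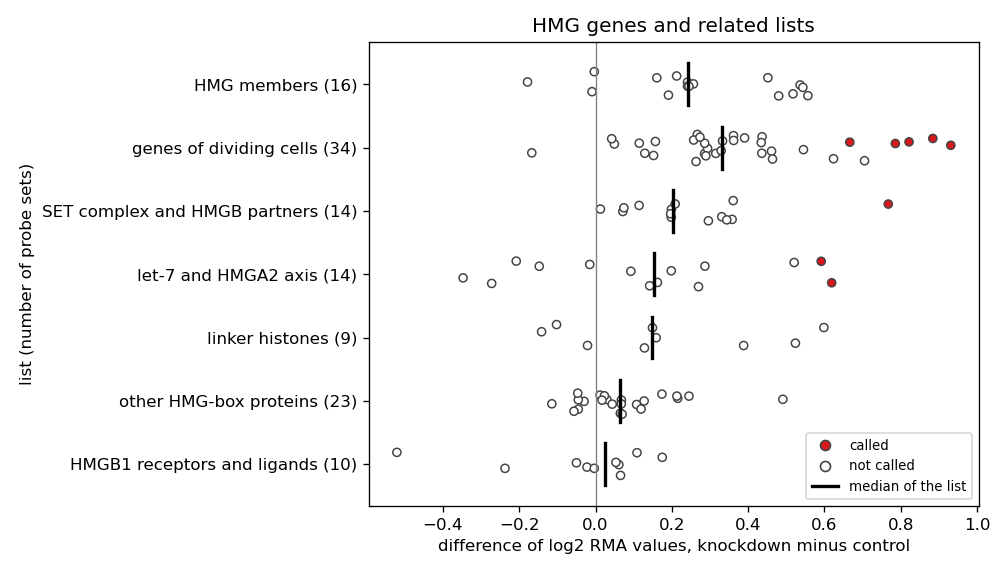
Knockdown minus control difference in log2 RMA value (horizontal axis), of each probe set of the HMG genes and of 6 related lists (rows, number of probe sets in brackets), with the list median (line) and probe sets called by limma without a block (filled). The dividing-cell list has the highest median over probe sets (0.33) and the HMG probe sets follow (0.24), of which 0 are called. Probe sets of a gene repeat each other, and over the 8 HMG genes the median is 0.21.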

How the data were processed

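The deposited values are log2 RMA values, for which the authors applied background correction, quantile normalisation between arrays and a summary per probe set. Tool versions, and which arrays were normalised together, are not given in the sources used here. Of 35556 rows, an annotation table gives 21789 a single gene symbol and 1621 several, and 12146 are not in it. Symbols were checked by Entrez number against a GRCm38.p6 table (0 changed). Groups and replicate numbers came from the sample labels. The series calls the samples biological replicates without naming cultures or days, so that p-values reflect only how far these samples spread, and the number of arrays limits the precision.

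As in the methods of the study, limma (3.58.1, R 4.3.3, lmFit and eBayes, two-sided) followed a variance filter. The 11705 of 23410 rows with a gene symbol whose interquartile range exceeded the median were kept, a reading of the cut-off made here. Calls required p under 0.1 after Benjamini-Hochberg adjustment over all rows kept, together with 1.3-fold or more in either direction. Members removed by the filter come from the same fit without it. Gene means over probe sets were compared by exact permutation tests. Probe sets of a gene with near-identical copies may share signal with them.

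The members and lists were chosen with earlier results of these data known. All HMG genes were named. From each related list came at most 4 called genes, by size of difference, or in their absence the 2 genes of lowest unfiltered p. The 5 genes most correlated with Hmgb2 were also named. Deviations from the group means were correlated between arrays of 1 replicate number ( 0.14, 0.65 and 0.65 for numbers 1, 2 and 3), all above the bound of 0.1 for treating the numbers as pairs, although control replicate 1 correlated more with knockdown replicate 2 (0.202). A fit blocked on replicate number is therefore given where it changes a call. The limma fit, without the variance filter or the block, was tested on simulated data with independent noise and changes larger than any HMG difference. That test does not cover differences of the size found here. Alternatives were other filters, the block, median centring, an intensity trend, stricter thresholds, a single value per gene and leaving out each array. Promoter windows came from RefSeq (GRCm38.p6), which matched 8 of 9 genes.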

Additional observations from a re-analysis of the deposited data

How the results depend on the processing

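With the replicate number as a block, 6 HMG probe sets of 2 genes were called in place of 0, and 896 probe sets over all genes in place of 133. With an intensity trend in the prior variance, 4 HMG probe sets of 1 gene (Hmgb2, adjusted p = 0.0957) were called. Without each array in turn the HMG count ran from 0 to 6 probe sets and from 0 to 2 genes, with 6 without knockdown replicate 2 and 4 without control replicate 3, and the count over all genes ran from 4 (without knockdown replicate 1) to 508 (without knockdown replicate 2). Over all genes, 41 were called without the variance filter, 0 with the filter over all rows, 76 with a filter on dim probe sets and 32 at an adjusted p under 0.05. The HMG count stayed at 0 under these and under median centring, no fold threshold and a single value per gene. The cause of these shifts was not tested.

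The differences of Hmgb1, Hmgb2, Hmgb3, Hmgn1 and Hmgn3 kept their sign under every alternative run, from 0.39 to 0.66 for Hmgb2 (adjusted p of 0.011 to 0.59) and from 0.39 to 0.57 for Hmgb3. The sign turned for Hmgn2 probe set 10522784 without control replicate 2 (-0.022, with 0.27 at most, without control replicate 3), for Hmgn5 under median centring (0.0063) and without knockdown replicate 2 (0.03), knockdown replicate 3 (0.07), control replicate 1 (0.14) or control replicate 2 (0.009), against -0.16 without control replicate 3, and for Hmga2 under median centring (0.00044) and without knockdown replicate 2 (0.003) or control replicate 3 (0.063), against -0.083 without control replicate 2. Counts of the related lists with the block and without each array were added after the data were seen. Without each array they ran from 0 to 9 for genes of dividing cells, 0 to 3 for the let-7 axis and 0 to 1 for the other lists.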
